A study of Homo sapiens with 3 samples.

Results

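The enzymes described here interconvert weak and potent estrogens or free them from sulfate: the hydroxysteroid dehydrogenases HSD17B1, HSD17B2, HSD17B4, HSD17B7, HSD17B8, HSD17B10, HSD17B11, HSD17B12 and HSD17B14, and the steroid sulfatase STS. They were taken by symbol, and all 10 were among the 22499 rows with a gene symbol in the count tables. Of these, 3 are classed as reductive (HSD17B1, HSD17B7, HSD17B12) and 6 as oxidative (HSD17B2, HSD17B4, HSD17B8, HSD17B10, HSD17B11, HSD17B14), and STS stands alone. Single-cell RNA was measured in spheroids of CAMA-1, an established estrogen receptor-positive breast cancer line. Spheroids of 2000 plated cells held 100% sensitive cells (sensitive monoculture), 50% of each lineage (coculture) or 100% resistant cells (resistant monoculture), and all received 1 µM ribociclib, a CDK4/6 inhibitor, with DMSO and were harvested after 11 days. Sensitive cells carried the fluorescent transgene Venus, and the ribociclib-resistant derivative carried mCherry. Each condition had 1 library and the resistant cells are 1 selected derivative of 1 line, so that lineage, selection and transgene cannot be told apart in these data, and between the monocultures neither can the library. The lineages share a library in the coculture. Coculture and monoculture cells of a lineage came from different libraries, so culture and library cannot be told apart between them. No untreated spheroid was analysed here.

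Estrone is a weak estrogen and estradiol a potent one. Reductive HSD17B enzymes turn estrone into estradiol with NADPH, and oxidative ones run the reaction back with NAD+. In breast tissue estrone is supplied by aromatase (CYP19A1) from androgens or by STS from circulating estrone sulfate. Most members have a second substrate class, in particular fatty acids, so RNA of an "oxidative" or "reductive" enzyme is not a measure of estrogen turnover.

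The authors' annotation placed 3329 cells in sensitive monoculture, 2059 sensitive and 6292 resistant cells in the coculture library and 7557 cells in resistant monoculture, and their UMIs (unique molecular identifiers, counted once per captured RNA molecule) were summed per population. The sums held 70896822 to 270891547 UMIs, and levels are given as UMIs per 1e6 UMIs (CPM) with a 95% Poisson interval that covers counting error only. A single library per condition leaves no replicate to test against. A ratio of 2 populations is therefore given with an exact binomial interval for counting error, and a gene was counted as higher or lower where the ratio passed 1.5-fold and the 2 populations held at least 50 UMIs together. The 8 luminal markers were all above 1 CPM in each population (summed level 8295 to 10274 CPM). Basal, fibroblast, endothelial and immune markers each summed to at most 3.65 CPM. The endothelial value is VWF alone, since PECAM1 was not matched. Cells called G1 made up 89.0% of sensitive monoculture but 49.7% to 55.3% of the other populations, and mitochondrial genes took 20.3% of UMIs there against 15.9% to 17.6%. Libraries shared 34 to 60 barcodes pairwise, of which 7 to 17 were annotated cells. Some values bear on RNA of the other lineage in the coculture. FABP7, at 1398 CPM in sensitive and 0.808 CPM in resistant monoculture, stood at 14.4 CPM in cocultured resistant cells. The mCherry UMIs in the 1263 coculture barcodes with 2 or more Venus UMIs corresponded to 7.57% resistant-cell RNA. All 186 of these UMIs lay in 136 barcodes, 109 of them with 1 such UMI, that are not among the annotated cells and could include doublets. The annotated sensitive cells of the coculture held 0 mCherry UMIs and the annotated resistant cells 0 Venus UMIs. Among barcodes with 2 or more Venus UMIs, 1127 without an mCherry UMI were annotated and 0 with one. The absence of mCherry thus follows which barcodes were annotated and does not measure free resistant-cell RNA. The 7.57% was not measured in the annotated sensitive cells either. Their level of MGP, a gene high in resistant cells, corresponded to 11.4% resistant-cell RNA.

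HSD17B1, the classic estrone reductase of steroid-producing tissue and of breast tumours, was the reductive member with the widest gap between lineages. The gene (GRCh37 chromosome 17, 40704940 to 40707232, plus strand) had 21.1 CPM (20.2 to 22.1) in sensitive monoculture, 13.2 CPM (12.3 to 14.0) in sensitive coculture, 38.1 CPM (37.3 to 39.0) in resistant coculture and 39.4 CPM (38.7 to 40.2) in resistant monoculture. Both resistant populations thus lay above both sensitive ones, the intervals of the resistant populations overlapped, and cocultured sensitive cells were the lowest. The level was 1.87-fold (1.78 to 1.96) higher in resistant than in sensitive monoculture and 2.90-fold higher in resistant than in sensitive cells of the coculture, where the sensitive cells had 0.345 (0.322 to 0.370) of the resistant level. Within the sensitive lineage it was 1.61-fold (1.48 to 1.74) lower in coculture than in monoculture. The share of 7.57% resistant-cell RNA was not measured in the annotated sensitive cells, whose 0 mCherry UMIs follow which barcodes were annotated. Taking it out all the same would give 11.1 CPM in sensitive coculture and a ratio to monoculture of 0.526. Within the resistant lineage the ratio of coculture to monoculture was 0.966 (0.938 to 0.995).

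The other reductive members varied little. HSD17B7, which also acts in cholesterol synthesis, ran from 13.1 CPM in sensitive coculture over 14.0 CPM in resistant coculture and 14.3 CPM in sensitive monoculture to 14.7 CPM in resistant monoculture, and neighbours in this order had overlapping intervals. HSD17B12, the reductase of very-long-chain fatty acid elongation, ran from 16.7 CPM in sensitive monoculture over 17.2 CPM in sensitive coculture and 18.1 CPM in resistant monoculture to 19.95 CPM in resistant coculture. Only the last of these stood clear of its neighbour's interval, by a ratio of 1.10 (1.06 to 1.15) between the resistant populations. No ratio of either gene passed 1.5-fold in any of the 4 comparisons. HSD17B7 has a copy, HSD17B7P2, with no row of its own. The second identifier on the deposited HSD17B7 row is not the one RefSeq gives this gene, so its UMIs may include the copy's.

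**Figure D1:**
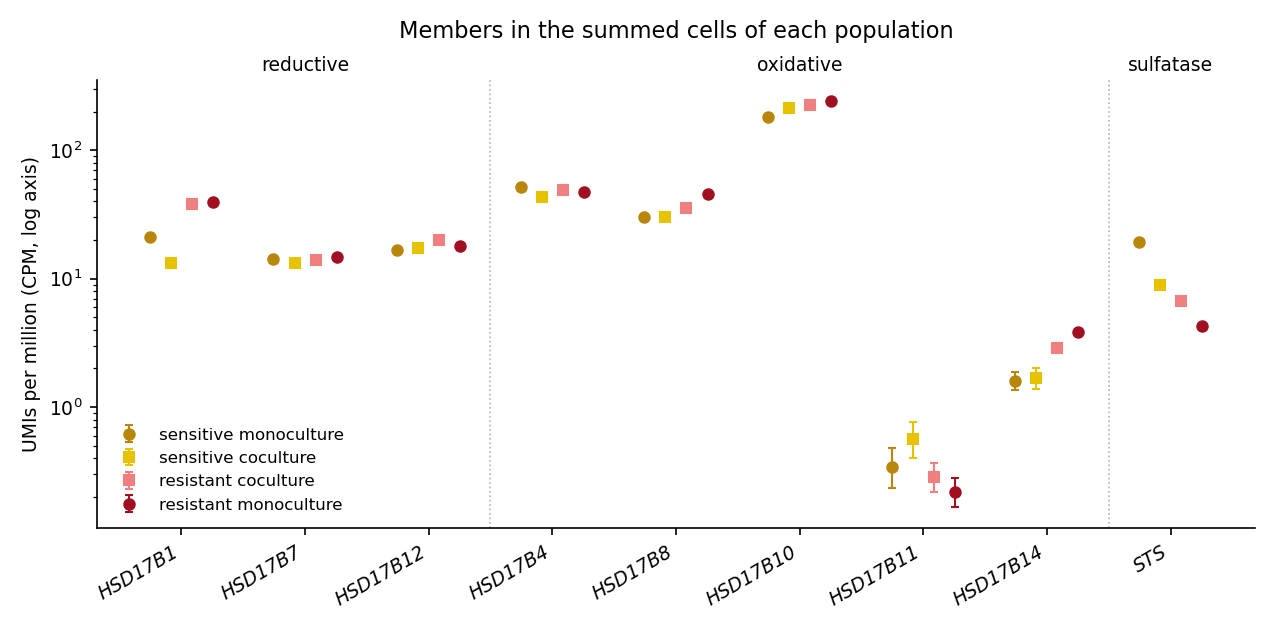
Level of each member (CPM, log axis) in the summed cells of the 4 populations, with 95% Poisson intervals, and HSD17B2, with at most 3 UMIs, left out. HSD17B10 stands highest at 182 to 243 CPM, HSD17B1 is higher in both resistant populations, and STS steps down from sensitive to resistant monoculture.

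HSD17B10 was the most abundant member on this 3'-end count, in which UMIs do not scale with transcript length. This mitochondrial dehydrogenase takes part in isoleucine breakdown and is a subunit of mitochondrial RNase P. Its level was 182 CPM (179 to 184) in sensitive monoculture, 214 CPM (210 to 217) in sensitive coculture, 226 CPM (224 to 229) in resistant coculture and 243 CPM (241 to 245) in resistant monoculture, with no overlap of these intervals. It was the only member with a UMI in over 95% of unthinned cells in every population. The ratio of the monocultures was 1.34 (1.32 to 1.36), under the 1.5-fold limit.

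HSD17B8, which oxidises estradiol and forms with CBR4 the ketoacyl reductase of mitochondrial fatty acid synthesis, was highest in resistant monoculture. The gene lies on GRCh37 chromosome 6 at 33172432 to 33174608, plus strand. Its levels were 30.4 CPM (29.3 to 31.6) in sensitive monoculture, 30.1 CPM (28.9 to 31.4) in sensitive coculture, 35.2 CPM (34.4 to 36.0) in resistant coculture and 45.4 CPM (44.6 to 46.2) in resistant monoculture. The sensitive populations were not distinguishable at this depth, with a ratio of 0.990 (0.936 to 1.05). Resistant over sensitive monoculture was 1.49 (1.43 to 1.55), just inside the limit, and it passed 1.5-fold under 4 of the alternatives tried. Within the coculture the same ratio was 1.17 (1.11 to 1.23), and cocultured resistant cells had 0.775 (0.753 to 0.798) of the resistant monoculture level. The partner gene CBR4 had a different pattern, 24.5 CPM in sensitive monoculture and 15.3 to 15.8 CPM in the other populations.

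HSD17B4, the peroxisomal multifunctional enzyme of fatty acid oxidation, was nearly level across populations, at 51.9 CPM in sensitive monoculture, 43.1 CPM in sensitive coculture, 48.9 CPM in resistant coculture and 47.1 CPM in resistant monoculture. Sensitive coculture was lowest, at 0.830 (0.794 to 0.869) of sensitive monoculture. HSD17B14, a cytosolic dehydrogenase, was scarce but ordered by lineage, at 1.59 CPM in sensitive monoculture (153 UMIs), 1.68 CPM in sensitive coculture (119 UMIs), 2.91 CPM in resistant coculture (580 UMIs) and 3.84 CPM in resistant monoculture (1040 UMIs). It was 2.42-fold (2.04 to 2.88) higher in resistant than in sensitive monoculture and 1.73-fold (1.42 to 2.13) higher in the coculture, and the sensitive populations overlapped. HSD17B11, a lipid droplet protein, had 33, 40, 57 and 59 UMIs in the populations, in the order sensitive monoculture, sensitive coculture, then the resistant cells of coculture and of monoculture, or 0.218 to 0.564 CPM. Its ratios passed 1.5-fold in 3 comparisons, but the interval between the monocultures ran from 0.408 to 1.00 and that between the sensitive populations from 1.01 to 2.69. Within the coculture its ratio of resistant to sensitive cells was 0.506 (0.332 to 0.778).

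HSD17B2, the dehydrogenase best known for inactivating estradiol, was almost undetected. No UMI was found in sensitive monoculture or resistant coculture, 1 in sensitive coculture and 3 in resistant monoculture, among 96247731, 199632131, 70896822 and 270891547 UMIs in that order. A count of 0 allows up to 0.0312 CPM in sensitive monoculture and 0.0150 CPM in resistant coculture, taking 3 counts as the limit. No fold is given, since each population was at or under 3 counts.

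STS showed the widest range among members above 1 CPM in every population. The sulfatase gene (GRCh37 chromosome X, 7065278 to 7772399, plus strand), whose product releases estrone from estrone sulfate, had 19.2 CPM (18.3 to 20.1) in sensitive monoculture, 8.98 CPM (8.30 to 9.71) in sensitive coculture, 6.72 CPM (6.37 to 7.09) in resistant coculture and 4.25 CPM (4.01 to 4.50) in resistant monoculture. The 4 intervals did not overlap, and the cocultured populations lay between the monocultures. Sensitive monoculture exceeded resistant monoculture 4.51-fold (4.19 to 4.86) and sensitive coculture 2.13-fold (1.95 to 2.34). Cocultured resistant cells were 1.58-fold (1.46 to 1.71) above resistant monoculture. Within the coculture the lineages differed less, by a ratio of 0.748 (0.680 to 0.823) of resistant to sensitive cells. Removal of resistant-cell RNA at the 7.57% share, not measured in the annotated cells, moved the sensitive coculture level to 9.17 CPM. In cocultured resistant cells the FABP7 level corresponded to 4.73% sensitive-cell RNA with cocultured sensitive cells (289 CPM of FABP7) as reference. With sensitive monoculture (1398 CPM) as reference it corresponded to 0.975%. The part of this RNA in the STS gap between the resistant populations was not tested. PUDP overlaps STS on the opposite strand and has a row of its own.

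The promoters of 6 members, with 11 start sites, were matched in a table of RefSeq sequences (GRCh38.p14), while HSD17B1, HSD17B2, HSD17B12 and HSD17B14 were not. The 250 bases before the start are shown for HSD17B8 and HSD17B10, which were highest in resistant monoculture with intervals clear of the other populations, and for the most upstream of the 5 STS starts, since STS was lowest there. Capitals mark the GC box (GGGCGG) and the CCAAT box (CCAAT), each searched on both strands and written as it reads on the gene's strand.
HSD17B8, chr6:33204405-33204654, plus strand: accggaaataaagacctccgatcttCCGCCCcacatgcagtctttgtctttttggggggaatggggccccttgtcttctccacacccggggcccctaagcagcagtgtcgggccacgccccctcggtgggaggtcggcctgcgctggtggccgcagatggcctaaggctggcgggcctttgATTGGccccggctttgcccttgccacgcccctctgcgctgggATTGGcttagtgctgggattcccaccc
HSD17B10, chrX:53434377-53434626, minus strand: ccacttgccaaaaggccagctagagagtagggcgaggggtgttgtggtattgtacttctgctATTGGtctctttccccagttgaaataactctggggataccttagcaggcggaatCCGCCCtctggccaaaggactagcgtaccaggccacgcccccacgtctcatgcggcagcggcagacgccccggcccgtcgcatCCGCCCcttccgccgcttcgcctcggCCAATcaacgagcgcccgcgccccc
STS, chrX:7147040-7147289, plus strand: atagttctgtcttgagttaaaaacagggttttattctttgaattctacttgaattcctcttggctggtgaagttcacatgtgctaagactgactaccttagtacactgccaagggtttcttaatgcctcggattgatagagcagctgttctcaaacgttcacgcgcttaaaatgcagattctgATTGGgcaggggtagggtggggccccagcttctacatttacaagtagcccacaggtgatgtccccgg
The HSD17B8 window held 1 GC box and 2 CCAAT boxes, and the HSD17B10 window 2 of each, none overlapping. The STS window held 1 CCAAT box and no GC box, and its GC content was 45.6% against 64.8% and 63.2%. The other 4 STS windows held neither box and had a GC content of 38.8% to 60.4%. Among all 34788 windows of this length in the table, 42.6% held a GC box and 32.0% a CCAAT box, so these letters are common. The TATA box (TATAAA) was in 1 of the 11 member windows, at another STS start, and in 10.8% of all windows. The full estrogen response element (GGTCA, 3 bases of any kind, then TGACC) was in none of the member windows and in 0.0402% of all.

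Across the 9 members with enough UMIs, 3 passed 1.5-fold between sensitive coculture and sensitive monoculture: HSD17B1 and STS lower and HSD17B11 higher. Of all 12327 genes with enough UMIs 18.3% did so, and the median log2 ratio was -0.01 over the members and -0.06 over all genes. Between the monocultures 4 members passed, HSD17B1 and HSD17B14 higher in resistant cells and HSD17B11 and STS lower, where 30.1% of 12970 genes passed (median 0.12 against -0.09). Within the coculture 3 passed, HSD17B1 and HSD17B14 higher in resistant cells and HSD17B11 lower, against 13.2% of genes (median 0.18 against 0.00125). With a pseudocount of 1 CPM only HSD17B1 still passed there. Between the resistant populations STS alone passed, higher in coculture, against 4.52% of genes (median -0.05 against 0.04). With a pseudocount of 1 CPM its log2 ratio was 0.56, within the limit, and so was its ratio of 1.45 among G2M cells. Comparisons that use the same population are not independent of each other. Scaling by TMM factors in place of UMI totals moved the monoculture median of all genes to 0.02 and the share of higher genes among those past 1.5-fold from 38.5% to 50.2%. For the resistant populations that share went from 84.7% to 72.4%. With this scaling HSD17B1, HSD17B14 and STS still passed 1.5-fold between the monocultures, HSD17B8 passed as higher and HSD17B11 did not pass.

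**Figure D2:**
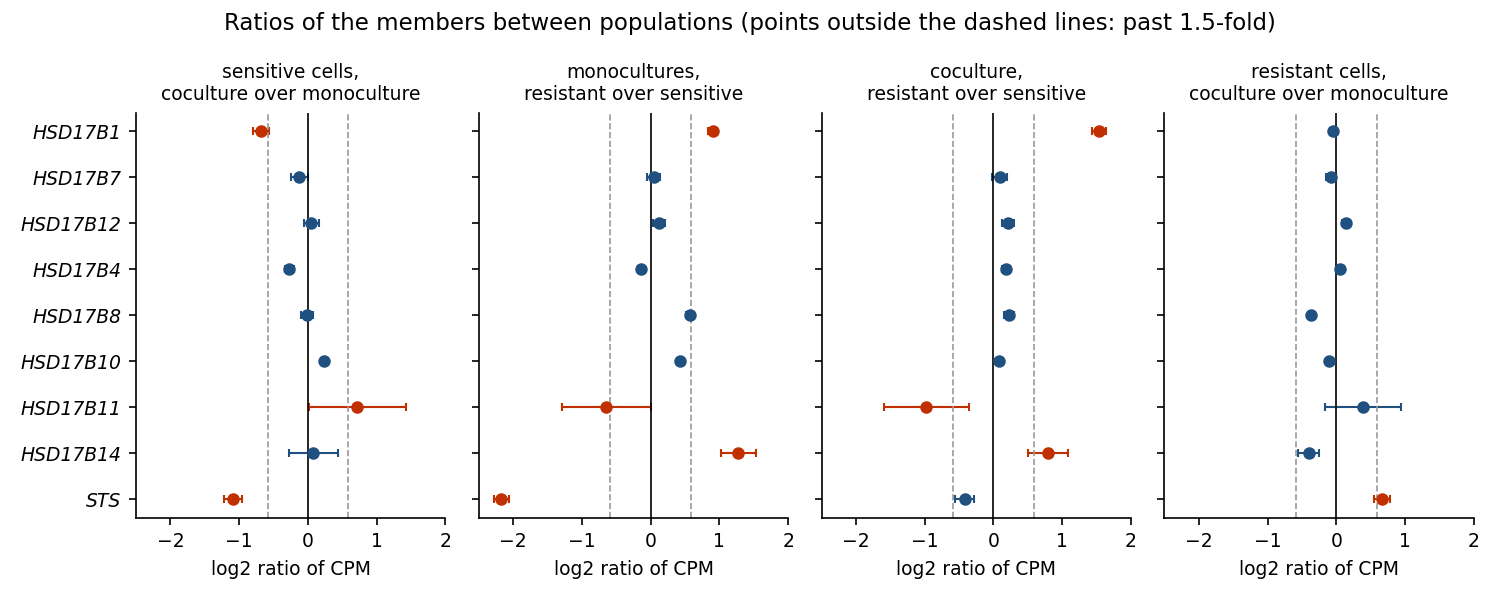
Log2 ratio of CPM for 9 members in the 4 comparisons, with 95% intervals for counting error; dashed lines mark 1.5-fold and red points passed it. HSD17B1 lies left of 0 in the first panel and right of 0 in both panels between lineages, and STS is at -1.09 in the first panel and at 0.66 in the last.

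Each cell was also thinned to 5000 UMIs and the share of cells with a UMI counted, all annotated cells being deep enough. The mean was then 0.0197 to 0.203 UMIs per cell for HSD17B1 and STS, at which the share with a UMI closely follows the mean, so that neither CPM nor these shares can tell fewer cells with an RNA from less RNA per cell. HSD17B1 was found in 9.67% (8.69 to 10.7) of thinned cells in sensitive monoculture, 6.70% (5.66 to 7.87) in sensitive coculture, 15.5% (14.6 to 16.4) in resistant coculture and 15.5% (14.7 to 16.3) in resistant monoculture. Without thinning the shares were 36.5%, 31.6%, 54.8% and 57.5%. STS was found in 8.26% (7.35 to 9.25), 4.71% (3.84 to 5.72), 3.23% (2.80 to 3.69) and 1.89% (1.60 to 2.23) of thinned cells in the same order, against 36.4%, 24.2%, 17.3% and 13.0% of unthinned cells. HSD17B8 was found in 14.0%, 13.2%, 16.2% and 20.2% of thinned cells and in 54.9%, 60.9%, 63.1% and 75.6% of unthinned ones. No cell type that should lack these enzymes was present as a background. FABP7 was found in 0.265% of thinned resistant monoculture cells and in 4.15% of cocultured resistant cells, and HSD17B11, at 0.0795% to 0.243% in all populations, was below both. In cocultured resistant cells STS (3.23%) and HSD17B14 (1.72%) were also below the 4.15%. FABP7 had a higher level in sensitive cells than these members, so its shares set no floor for them. HSD17B8 was found in 13.0% of thinned sensitive monoculture cells that had an HSD17B1 UMI and in 14.1% of the others, in sensitive coculture in 15.9% and 13.0%, in resistant coculture in 15.6% and 16.3% and in resistant monoculture in 18.8% and 20.5%.

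The cell cycle phase called by the authors moved with several members. HSD17B1 was lower in S than in G1 and lower again in G2M within each population, from 22.1 over 16.5 to 13.8 CPM in sensitive monoculture, from 15.9 over 12.0 to 8.38 CPM in sensitive coculture, from 48.6 over 33.4 to 24.3 CPM in resistant coculture and from 52.1 over 30.8 to 24.2 CPM in resistant monoculture. The G2M to G1 ratio was 0.622 (0.501 to 0.765), 0.527 (0.436 to 0.634), 0.499 (0.469 to 0.532) and 0.463 (0.438 to 0.491) in that order, past 1.5-fold in every population. Genes lower past 1.5-fold in G2M made up 13%, 5.45%, 4.68% and 4.65% of all tested, respectively. The HSD17B1 intervals of S and G2M cells overlapped in sensitive monoculture (13.5 to 19.9 and 11.1 to 16.8 CPM), so that step was not resolved there. STS was also lower in G2M, with ratios to G1 of 0.603 (0.477 to 0.753), 0.663 (0.533 to 0.820), 0.628 (0.543 to 0.725) and 0.697 (0.592 to 0.817), the last inside the limit. HSD17B14 was lower past 1.5-fold in sensitive monoculture (0.626, 0.247 to 1.33, with 7 UMIs in G2M cells) and resistant coculture (0.620, 0.494 to 0.772), but not in sensitive coculture (1.05) or resistant monoculture (0.686, 0.577 to 0.812). HSD17B8 had ratios of 0.744 to 0.910 and HSD17B10 of 1.01 to 1.16, none past the limit. The phase of a cell is itself called from RNA counts.

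Lineage differences were present within phases. Among G1 cells HSD17B1 was 2.36-fold (2.24 to 2.48) higher in resistant than in sensitive monoculture, among S cells 1.87-fold (1.54 to 2.28) and among G2M cells 1.76-fold (1.43 to 2.18). In the coculture the corresponding ratios were 3.06, 2.78 and 2.90. STS in resistant monoculture was at 0.249, 0.191 and 0.288 of sensitive monoculture in G1, S and G2M cells. In the coculture STS differed less, within 1.5-fold in each phase. It had 7.91, 6.36 and 4.97 CPM in resistant and 10.1, 8.72 and 6.73 CPM in sensitive cells. Between the sensitive populations the coculture to monoculture ratio of HSD17B1 was 0.719 (0.654 to 0.789) among G1 cells, 0.728 (0.575 to 0.927) among S cells and 0.609 (0.466 to 0.798) among G2M cells. These intervals overlapped, and the G2M value alone passed 1.5-fold. For STS it was 0.515, 0.437 and 0.566, each past it, as were 8.42%, 5.44% and 5.95% of all genes in the lower direction. Sensitive coculture held fewer G1 cells (55.3% against 89.0%), and the pooled HSD17B1 ratio of 0.623 stood beside 0.719 within G1 cells.

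**Figure D3:**
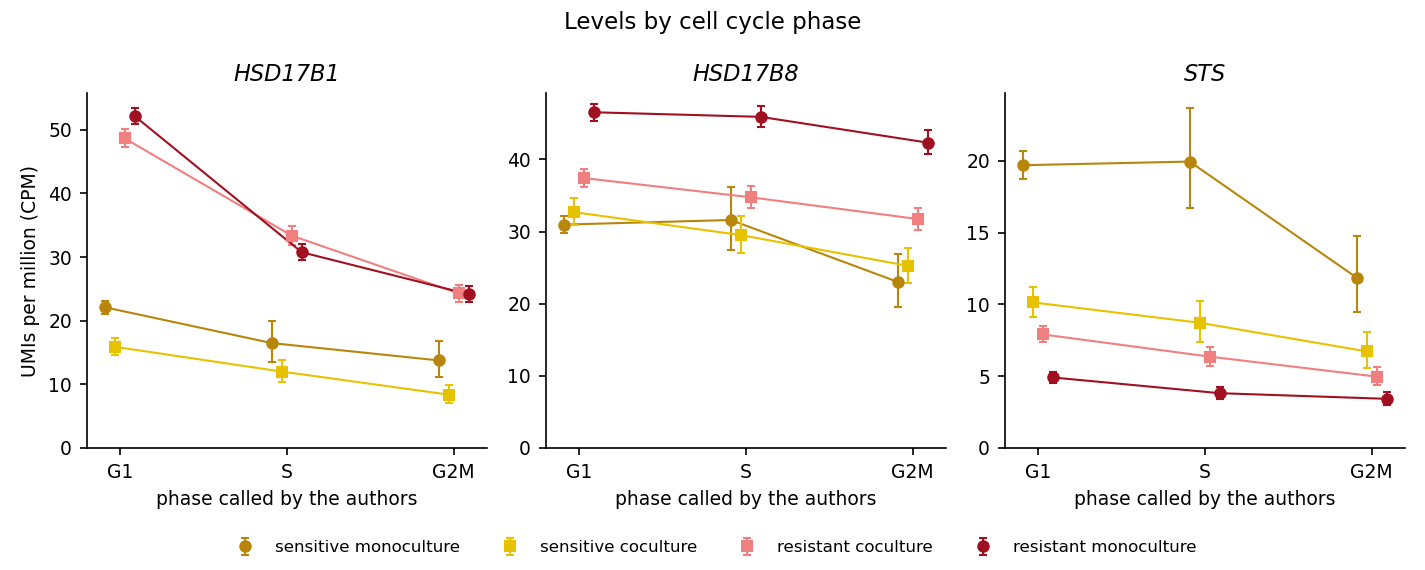
Levels of HSD17B1, HSD17B8 and STS (CPM) in cells called G1, S and G2M, by population, with 95% Poisson intervals. HSD17B1 declines from G1 to G2M in all 4 populations, from 52.1 to 24.2 CPM in resistant monoculture, and STS of sensitive monoculture lies above the others in each phase.

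The authors' 14 clusters were compared where a population had at least 100 cells in one, which gave 20 sums. HSD17B1 was highest in cluster 0, the largest resistant cluster, at 53.6 CPM in coculture and 54.6 CPM in monoculture, where 83.7% and 80.7% of cells were called G1. It was lowest among resistant cells in cluster 10, without G1 cells, at 17.7 and 13.5 CPM. Clusters 5 and 6 were mostly G1 too, yet held 29.3 and 22.2 CPM in coculture. Among sensitive monoculture cells it ran from 13.2 CPM in cluster 3 to 23.4 CPM in cluster 4. These clusters were made from the same cells and genes, so the values describe them and test nothing.

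Clusters 3 and 7 were those with at least 100 cells of both sensitive populations. Cluster 3 held 8.02% of sensitive monoculture and 52.8% of sensitive coculture, cluster 7 held 6.97% and 29.97%, and cluster 4 held 58.4% and 4.08%. Within cluster 3 the HSD17B1 ratio of coculture to monoculture was 0.955 (0.775 to 1.19), and within cluster 7 it was 0.604 (0.480 to 0.762). The same ratio for STS was 0.736 (0.588 to 0.928) in cluster 3 and 0.539 (0.424 to 0.688) in cluster 7. In sensitive monoculture STS was highest in cluster 4, at 23.3 CPM, and lowest in cluster 8, at 10.1 CPM. For the resistant lineage the STS ratio of coculture to monoculture was above 1 in each of clusters 0, 1, 2, 5 and 6, from 1.30 in cluster 2 to 2.07 in cluster 6. The HSD17B8 ratio was below 1 in the same clusters and in cluster 10, from 0.735 to 0.875.

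**Figure D4:**
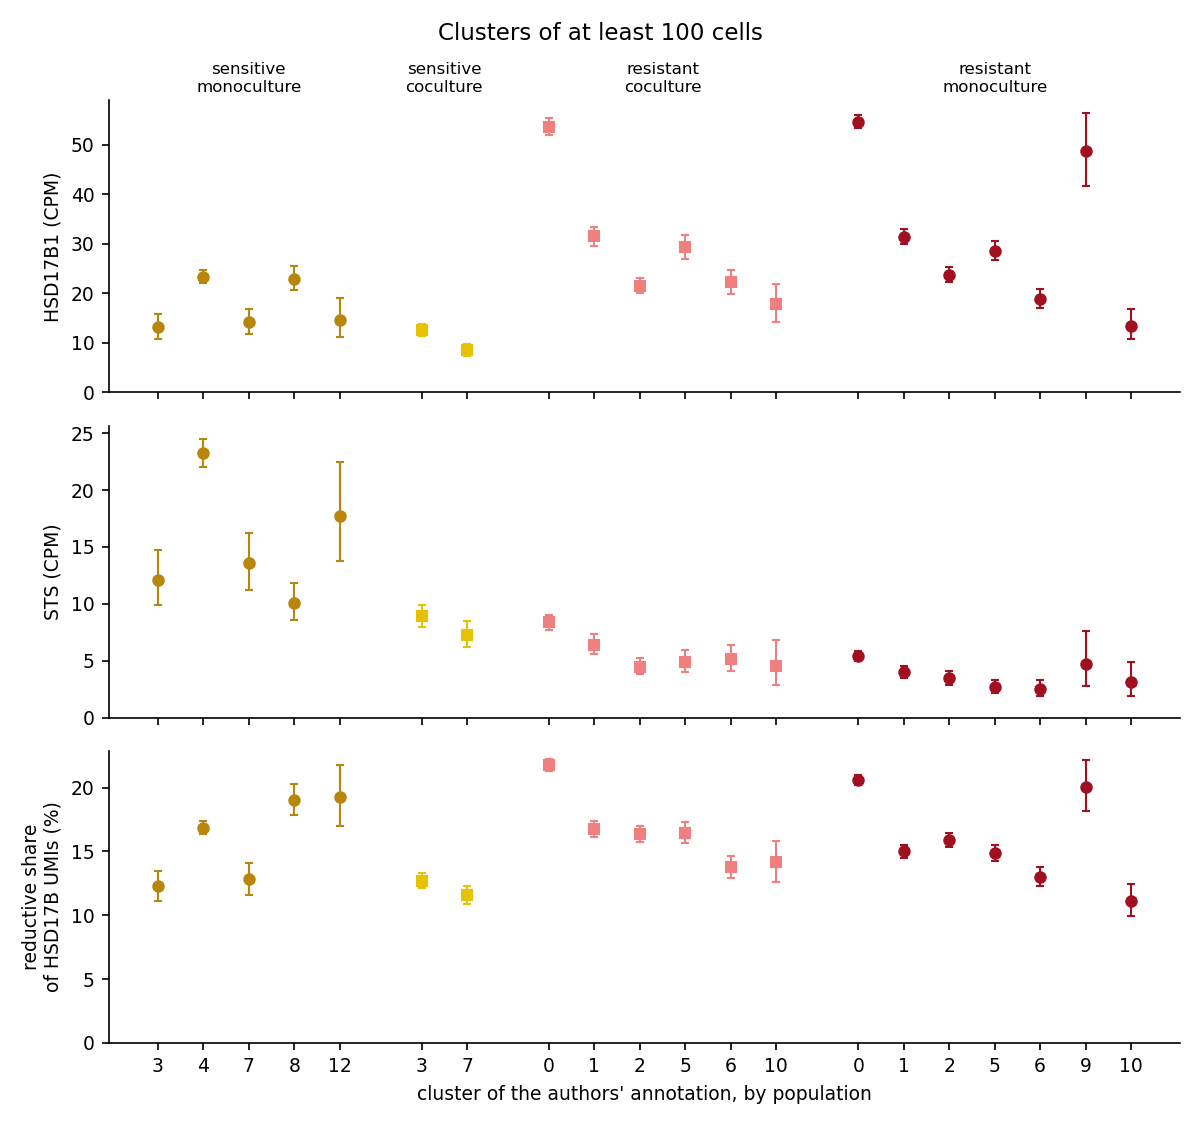
HSD17B1 and STS (CPM) and the reductive share of HSD17B UMIs (percent) in the 20 sums of at least 100 cells, by population and cluster, with 95% intervals for counting error. Cluster 0 carries the most HSD17B1 (53.6 and 54.6 CPM), cluster 4 the most STS (23.3 CPM), and the reductive share spans 11.1% to 21.8%.

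The reductive members together made up 16.4% (16.0 to 16.8) of HSD17B UMIs in sensitive monoculture, 13.1% (12.7 to 13.5) in sensitive coculture, 18.7% (18.4 to 18.9) in resistant coculture and 17.5% (17.3 to 17.8) in resistant monoculture. HSD17B1 gave 40.6%, 30.2%, 52.9% and 54.6% of the reductive UMIs, and HSD17B10 gave 68.3% to 73.9% of the oxidative ones. Several members also act on other substrates, and the order of the monocultures depended on which members and cells were counted. Without HSD17B4 and HSD17B10, but with HSD17B7 and HSD17B12 still counted, the reductive share was 61.7%, 57.3%, 65.2% and 59.4%, and resistant monoculture then lay below sensitive monoculture. Without HSD17B12 alone it was 11.8%, 8.34%, 14.2% and 13.7%, and resistant monoculture lay above sensitive monoculture. Among cells with 2 or more transgene UMIs the share was 16.9% in sensitive and 16.5% in resistant monoculture, so that the resistant value was again the lower of the pair. These were 1314 of 3329 and 3446 of 7557 annotated cells. Of the UMIs of HSD17B1 and HSD17B8 alone, HSD17B1 gave 41.0% (39.6 to 42.4), 30.4% (28.8 to 32.1), 52.0% (51.2 to 52.8) and 46.5% (45.8 to 47.1). The reductive share was higher in G1 than in S and G2M cells of each population, for example 20.1% against 14.9% and 15.5% in resistant monoculture.

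Aromatase, which would supply estrone from androgens, was all but undetected: CYP19A1 had 0 UMIs in both monocultures, 1 in sensitive coculture and 2 in resistant coculture. Among the 49 other genes of estrogen and steroid handling that were listed, 47 had a row and 27 to 29 had enough UMIs in a comparison. Between the monocultures 2 were higher in resistant cells past 1.5-fold and 13 lower (11.6% and 18.5% of all genes), with a median log2 ratio of -0.28 against -0.09. Between the sensitive populations 2 were higher in coculture and 7 lower (8.6% and 9.69%), with a median of -0.27 against -0.06. Within the coculture 1 was higher and 6 lower in resistant cells (5.65% and 7.58%). Between the resistant populations 3 were higher in coculture and none lower (3.82% and 0.692%).

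Of the 13 lower genes of the monocultures, 5 were in the list of hydroxylation and glucuronidation. These were all of its genes with enough UMIs, with a median log2 ratio of -3.39. The largest differences in the monocultures were UGT2B17 and UGT2B15, which couple steroids to glucuronic acid, with log2 ratios of -4.74 (419 UMIs in sensitive and 44 in resistant monoculture) and -3.60, and AKR1C3, a reductase of androgens and estrone, with -3.59 (47 and 11 UMIs). UGT2B15 had 8.02 CPM in sensitive monoculture, 3.82 CPM in sensitive coculture, 0.927 CPM in resistant coculture and 0.661 CPM in resistant monoculture. Of the same 5 genes, 4 were lower past 1.5-fold in sensitive coculture than in sensitive monoculture: CYP1A1, CYP1B1, UGT2B15 and UGT2B17, named here after their values were seen. CYP1A1, which hydroxylates estrogens, had 21.8 CPM in sensitive monoculture, 4.89 CPM in sensitive coculture, 2.55 CPM in resistant coculture and 2.09 CPM in resistant monoculture, a log2 ratio of -2.16 between the sensitive populations. UGT2B17 followed with -2.12 and AKR1C3 with -1.79. Within the coculture UGT2B15 (-2.04), UGT2B17 (-1.51) and CYP1A1 (-0.94) were lower in resistant cells.

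Between the resistant populations the listed genes past 1.5-fold were UGT2B17 (log2 1.11), the organic anion transporter SLCO3A1 (1.09, 47 and 30 UMIs) and CYP1B1 (0.61), all higher in coculture. Like STS, all 3 were also higher in sensitive than in resistant monoculture. SLCO3A1 stood at 0.235 CPM in cocultured resistant cells, 0.208 CPM in sensitive monoculture and 0.127 CPM in sensitive coculture, with overlapping intervals. UGT2B17 and CYP1B1 were lower in cocultured resistant cells than in both sensitive populations. Sensitive-cell RNA in cocultured resistant cells was estimated at 0.975% to 4.73%, and its part in the 3 ratios was not tested. Of the 5 receptor genes, 2 were higher and 2 lower past 1.5-fold in resistant than in sensitive monoculture, where 11.6% and 18.5% of all genes were. Within the coculture all 5 had a ratio of resistant to sensitive cells below 1, and 2 were lower past 1.5-fold, as were 7.58% of all genes. The other lists had at most 3 genes past 1.5-fold in either direction in any comparison.

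**Figure D5:**
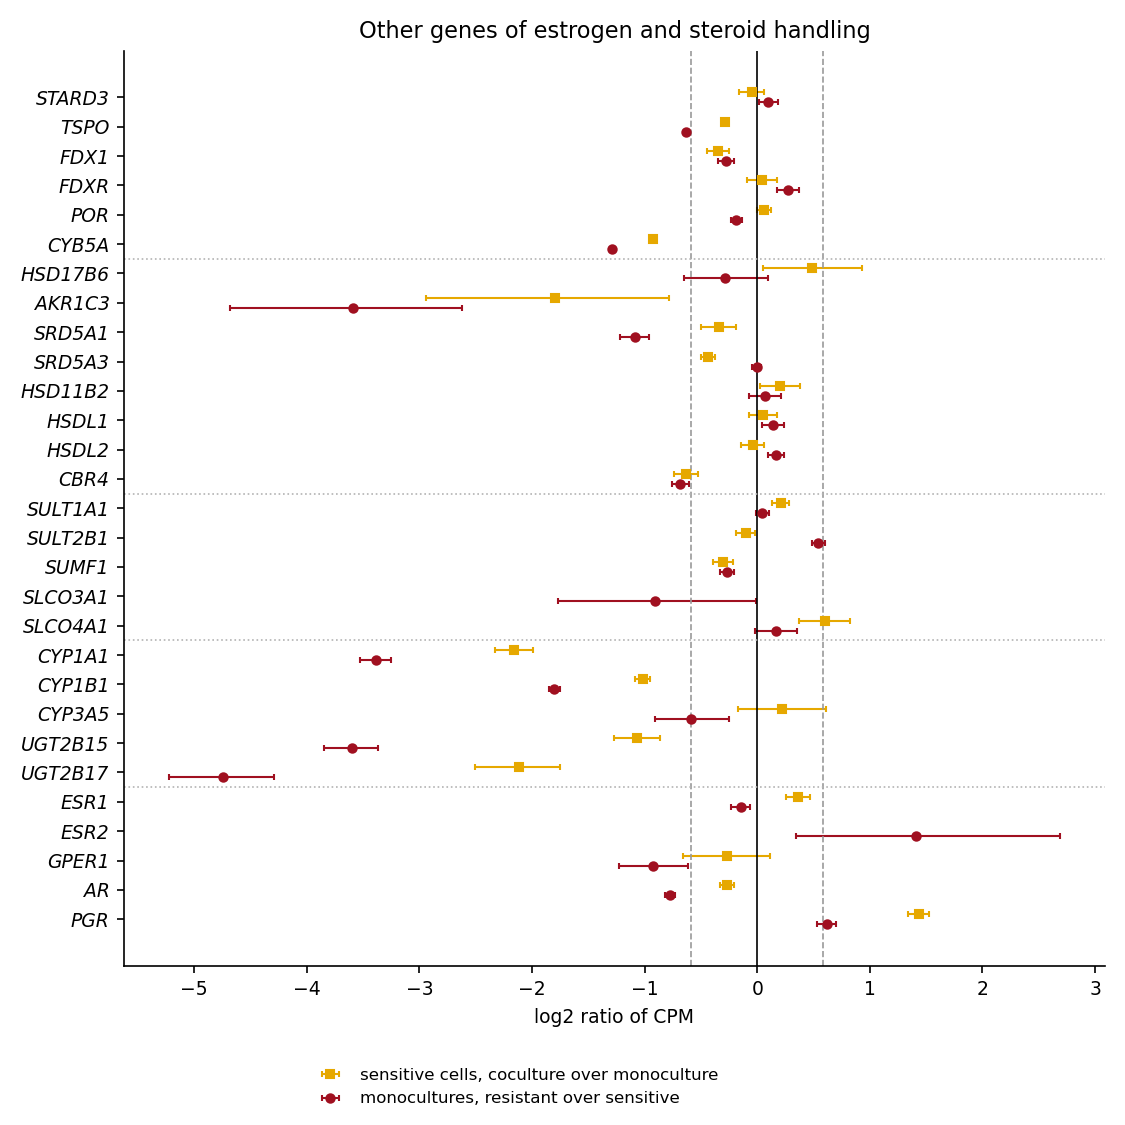
Log2 ratio of CPM for the 29 other listed genes with enough UMIs, with 95% intervals for counting error, in sensitive cells (coculture over monoculture, squares) and between monocultures (resistant over sensitive, circles); dotted lines separate the lists. UGT2B17, UGT2B15 and CYP1A1 lie farthest below 0 among the hydroxylation and glucuronidation genes.

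The genes whose levels over the 20 sums were most like a member's were sought among 6769 genes whose mean reached 10 CPM, as Pearson's r of log2(CPM + 1). The sums share libraries and depth, so r is a description. HSD17B1 was most like MTRF1L (0.92) and TKFC (0.92), and HSD17B8 like DNAJC4 (0.93), ERCC1 (0.92) and DALRD3 (0.92). HSD17B10 followed the ribosomal protein genes RPL8 (0.98), RPS27A (0.98) and RPSA (0.97). HSD17B7 (APTX 0.83, RNF5 0.79, ERCC4 0.78), HSD17B12 (MAK16 0.84, PSME1 0.84, PLOD3 0.83) and HSD17B4 (PIGF 0.70, RNPC3 0.69, TAF7 0.69) had looser matches. Between members, HSD17B1 and HSD17B8 had r = 0.70 and HSD17B12 and HSD17B10 had r = 0.67, and the other pairs lay between -0.27 and 0.41.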

How the data were processed

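Single cells of 3 libraries were sequenced on the 10x 3' v3 chemistry. The authors aligned reads with Cell Ranger 3.0.2 to GRCh37 and deposited raw UMI counts per gene and barcode, and an annotation of the kept cells with population, phase (called in Seurat) and cluster. These labels were used as deposited. The annotation's mitochondrial percent, deposited by the authors, was within the stated limit of 30 percent, and 12 of 19 annotation columns were not used. Rows without a symbol (0.523% to 0.591% of UMIs) were left out. The remaining total of a cell was within 6 UMIs of its deposited count. UMIs were summed per population, phase and cluster and divided by the sum's total. Intervals are exact (Poisson, conditional binomial, Clopper-Pearson) at 95%, and a count of 0 is limited by 3 counts. They cover counting error only. The study's methods state that cells predicted as doublets by scrublet were taken out, no caller was run here, and 1 alternative left out the 5% of cells with the most UMIs. TMM factors came from edgeR 4.0.16 (R 4.3.3), which served only to scale. The rest ran in Python 3.11.15, numpy 2.4.6, scipy 1.17.1 and pandas 2.3.3. The computation of ratios and intervals was tested on simulated data with known folds.

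All members, CYP19A1 and CBR4 are named, with the 3 listed genes of largest log2 ratio past 1.5-fold in each comparison, the 3 genes most like each member of at least 10 CPM, and FABP7 and MGP for free RNA. The members and lists were chosen with earlier results of these data known. Promoter sequences are RefSeq's, for 6 of 10 members. SRD5A2, DHRS11 and the endothelial marker PECAM1 were not matched. Some genes that this rule or the lists would name are not reported here and are left out of the counts of the lists. HSD17B1, HSD17B4, HSD17B12 and STS overlap genes on both strands, HSD17B2 on the other strand and HSD17B10 and HSD17B11 on the same strand. Copies named after HSD17B1, HSD17B7 and STS (HSD17B1P1, HSD17B7P2, STSP1) had no row, and how alike their sequences are was not checked. UMIs of all these members may therefore be uncertain. Alternatives covered pseudocounts, scaling, UMI minimum, fold, cell sets, cell weighting and free RNA.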

Additional observations from a re-analysis of the deposited data

Results flagged for a closer look

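The change of STS between coculture and monoculture had opposite signs in the lineages. The log2 ratio was -1.09 (-1.22 to -0.96, counting error only) in sensitive cells and 0.66 (0.55 to 0.78) in resistant cells. The difference between these ratios was not tested, since each condition had 1 library and both ratios use the coculture library. The direction was the same in G1, S and G2M cells, with ratios of 0.515, 0.437 and 0.566 in sensitive cells and of 1.61, 1.67 and 1.45 in resistant cells. RNA of the other lineage was estimated at 7.57% in coculture barcodes with 2 or more Venus UMIs, from mCherry UMIs that all lay outside the annotated cells, and at 0.975% to 4.73% in cocultured resistant cells, from FABP7. Taking the former share out of the annotated sensitive cells changed their ratio from 0.469 to 0.479. The part of the latter was not tested.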

How the results depend on the processing

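Members past 1.5-fold numbered 3 between the sensitive populations, 4 between the monocultures, 3 within the coculture and 1 between the resistant populations. Of all genes 18.3%, 30.1%, 13.2% and 4.52% passed. With a pseudocount of 10 CPM the member counts were 1, 2, 1 and 0, against 3.21%, 6.82%, 1.38% and 0.122% of all genes. With a fold of 2 they were also 1, 2, 1 and 0, against 6.17%, 14.4%, 5.87% and 0.859%. The 2 members between the monocultures were HSD17B1 and STS with this pseudocount, but HSD17B14 and STS with a fold of 2. A pseudocount of 1 CPM gave 1 within the coculture and 0 between the resistant populations, where no UMI minimum gave 2 and a smaller fold limit gave 4. Among G1 cells 1 member passed between the sensitive populations, as did 15.1% of all genes. The reductive share was, from sensitive monoculture and coculture to resistant coculture and monoculture, 16.9%, 13.9%, 20.7% and 20.1% in G1 cells, 11.8%, 8.34%, 14.2% and 13.7% without HSD17B12, and 61.7%, 57.3%, 65.2% and 59.4% without HSD17B4 and HSD17B10. With 2 or more transgene UMIs required it was 16.9% in sensitive monoculture, 18.3% in resistant coculture and 16.5% in resistant monoculture. Resistant monoculture then lay below sensitive monoculture. The share was 12.5% in sensitive coculture after taking out resistant-cell RNA at a level not measured in the annotated cells. The cause of these moves was not tested, except where the setting itself removes genes or cells. Of 303 log2 ratios of members, 246 stayed within the counting interval of the reported value, 57 moved beyond it and none past 1.5-fold changed sign. Totals without mitochondrial genes were an alternative chosen after seeing the data, and they changed none of the 4 counts. Of all genes 19.0%, 31.5%, 13.4% and 4.48% then passed. Members with under 200 UMIs, HSD17B2 and HSD17B11, are limited by depth. No paired analysis was possible because each condition had 1 library, with no test over samples.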

Other observations

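Most cells with many HSD17B1 UMIs were in the resistant lineage, where its level was also higher. Cells with 10 or more HSD17B1 UMIs made up 98 of 7557 in resistant monoculture (1.30%, exact interval 1.05 to 1.58), 63 of 6292 in resistant coculture (1.00%, 0.770 to 1.28), 5 of 3329 in sensitive monoculture and 1 of 2059 in sensitive coculture. In resistant monoculture 88 of the 98 were called G1 and 82 lay in cluster 0, against 50.0% and 42.8% of all its cells. In resistant coculture 49 of the 63 were called G1 and 47 lay in cluster 0, against 49.7% and 40.3% of all its cells. The median of all UMIs in these cells, 37672 and 31430, was near that of their populations, 35443 and 30686.5. The highest cell of resistant monoculture held 184 HSD17B1 UMIs and the next 93, and without that cell the level was 38.8 CPM against 39.4 CPM. The 1% of cells with the most HSD17B1 UMIs held 15.1% of them in resistant monoculture, 12.5% in resistant coculture, 12.6% in sensitive monoculture and 11.1% in sensitive coculture. In resistant monoculture this share was 4.45% for HSD17B8 and 2.79% for HSD17B10, which had more UMIs, and 15.6% for STS, which had fewer. After thinning to 5000 UMIs per cell the variance of HSD17B1 over its mean was 2.42 in resistant monoculture. It was 1.17 to 1.45 in the other populations, while that of HSD17B8 was 1.00 to 1.05. The intervals for CPM and ratios take UMIs as independent, so they do not include this spread of HSD17B1 between cells.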
